A study of Mus musculus with 3 samples.

Results

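Many array probe sets match more than 1 gene, and their signal cannot be assigned to any single gene. Here 686 of 28815 probe sets are described: those whose platform annotation lists 2 or more distinct gene symbols and whose highest log2 RMA value on the 3 arrays was at least 8. In all, 1597 probe sets list several symbols. Probe sets listing the same symbols were counted once, which gave 292 gene combinations, and the probe set with the highest mean stood for each. Of these combinations 194 list 2 symbols, and the longest list has 20. The members were chosen by these measured values, so their being bright is no finding. Just inside the level lay the pair AU022252 and P3h1, at 8.0017 on all 3 arrays, a list of 3 symbols with Zbed4 at 8.02, and a list of hair keratin-associated genes with Krtap6-1 at up to 8.04. Just outside it lay the histone pair H4c11 and H4c17, with a highest value of 7.9999, a chromosome 14 list with Gm5622 at 7.96, and the pair Gm28043 and Rnf8 at 7.95.

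RNA came from NMuMG cells, a mouse mammary gland epithelial line grown with puromycin. The mock array (n = 1) held cells with the pCAGIP vector, and the MAFK arrays (n = 2) held stable clone 4 and clone 10 carrying pCAGIP-FLAG-MafK. Each MAFK array is 1 clone, and whether mock was also cloned is not labelled, so the transgene and the choice of clone cannot be told apart. Nor is it stated how many cultures gave the RNA of each array. The p-values rest on the spread of the 2 MAFK arrays, which mixes clone differences with technical ones, and on a spread pooled over probe sets. Mock has no replicate, and the number of arrays limits the precision. Of 10 epithelial markers 5 reached 8 in mock and 4 in each clone. Cdh1, which encodes E-cadherin, read 11.35, 6.85 and 6.64 in mock, clone 4 and clone 10, and the median of the 10 was 8.74, 6.97 and 6.98. The keratin genes Krt8 (13.67, 13.18 and 13.31), Krt18 (11.95, 10.92 and 11.08) and Krt19 (11.99, 12.25 and 12.08) stayed bright, whereas Epcam and Esrp1 read 5.58 and 5.48 on all 3 arrays, below the array medians of 6.89 to 6.93. The part of these marker differences in the results was not tested. No measured marker of fibroblasts (8), endothelium (5), immune cells (5) or adipocytes (4) reached 8 on any array.

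Genes come to share probes in several ways. Tandem duplication leaves near-identical neighbours, as among the small proline-rich proteins of the skin barrier or the zinc finger repressors that bind transposable elements. Retrocopying scatters processed pseudogenes of abundant messages, such as those of ribosomal proteins, over the genome. Overlapping transcripts, such as a microRNA inside its host gene, are a further source. MAFK is a small MAF protein that lacks a transactivation domain and binds MAF recognition elements, often together with a CNC or BACH partner.

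The promoters of 2 paralogue sets lower in both clones are shown because the genes of each set share probe sets and carry the same arm of the MAF recognition element, TGCTGAC. The sequences are RefSeq's on GRCm38.p6, 5′ to 3′ on the strand of the gene and ending before the annotated start, with that arm in capitals (read on the opposite strand in the Gstp genes, as GTCAGCA).
Gstp1, chr19:4037929-4038028, minus strand: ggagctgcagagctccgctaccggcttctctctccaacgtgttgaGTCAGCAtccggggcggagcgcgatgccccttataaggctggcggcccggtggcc
Gstp2, chr19:4042253-4042352, minus strand: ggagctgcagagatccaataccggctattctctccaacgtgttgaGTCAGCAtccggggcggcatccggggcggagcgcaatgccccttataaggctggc
Sprr2a1, chr3:92215643-92215742, plus strand: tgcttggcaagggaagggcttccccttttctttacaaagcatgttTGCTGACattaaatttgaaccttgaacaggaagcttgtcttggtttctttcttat
Sprr2a3, chr3:92285140-92285239, plus strand: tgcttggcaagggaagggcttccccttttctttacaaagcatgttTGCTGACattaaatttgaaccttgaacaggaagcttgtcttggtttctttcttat
The arm begins 71 bases before the start of Gstp1 and 86 before that of Gstp2, and in both it overlaps a match to TGANTCA, the form bound by AP-1 factors. In Sprr2a1 it begins 147 bases and in Sprr2a3 119 bases before the start. In gapped alignments of the 300 bases held for each promoter, 246 of 319 columns (77.1%) are identical between Gstp1 and Gstp2 and 272 of 328 (82.9%) between Sprr2a1 and Sprr2a3, and Sprr2a1 and Sprr2a2 are the same throughout. RefSeq promoters were matched for 460 of the 691 symbols listed by the members. TGCTGAC on either strand lay in 4.46% of the members' 538 promoters, beside 4.67% of all 32851. Among 52 promoters of genes listed by combinations lower in both clones, 5 held it, those of Gstp1, Gstp2 and the 3 Sprr2a genes, which belong to 2 paralogue families and are not separate instances. The antioxidant response core TGACNNNGC lay in 3 of the same 52 promoters, beside 12.4% of all promoters, and TGANTCA in 7 of 52, beside 7.81%. A match describes letters and is not shown to be a bound site.

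The comparison of MAFK with mock asked which shared signals differ in the clones carrying the transgene. Most did not differ. Both clones lay within 0.5 of mock on the log2 scale in 233 of 292 combinations, a share not counted over other probe sets. The same value on all 3 arrays was found in 64 (21.9%), close to the 21.4% of probe sets of 1 gene that reach the same level. The median difference was 0 in each clone, as over all 28815 probe sets. At least 2-fold in the same direction in both clones, 23 combinations were lower and 2 higher. Over all probe sets 1.59% were lower and 0.947% higher by this rule, and over the 9110 probe sets of 1 gene that reach the same level 3.25% and 2.36%. Counted as probe sets, 29 of 686 members (4.23%) were lower and 2 higher.

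**Figure D1:**
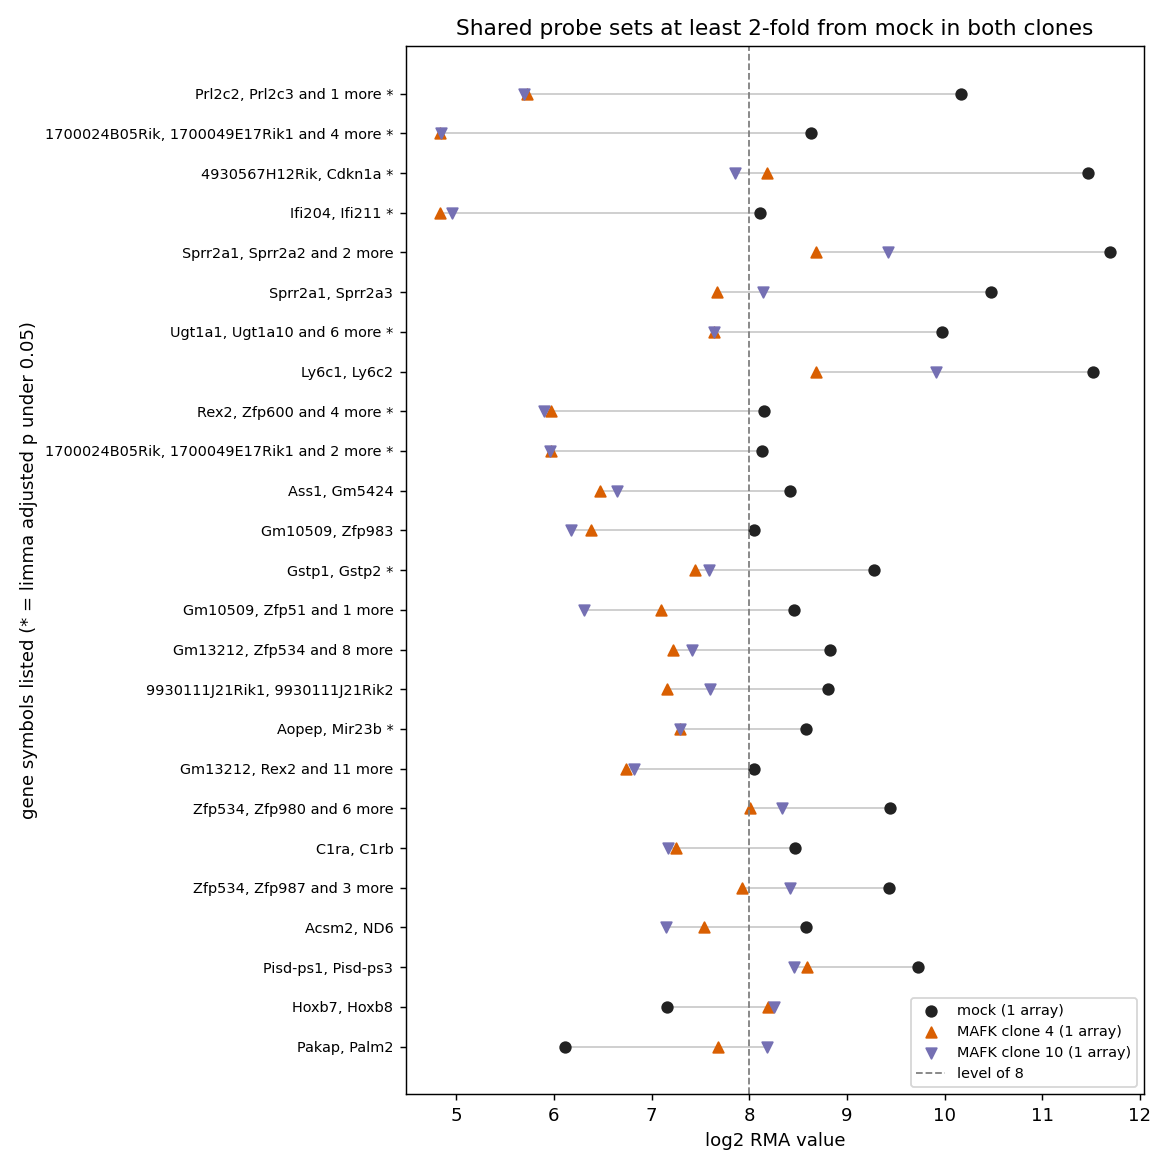
Log2 RMA values (horizontal axis) of the 25 gene combinations at least 2-fold from mock in both clones, with 1 point per array (circle mock, triangles the clones) and a dashed line at the level of 8. Mock lies to the right of both clones in 23 combinations and to the left in Hoxb7 with Hoxb8 and Pakap with Palm2, and stars mark the 9 with a limma adjusted p under 0.05.

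The level itself bears on this count, since a combination that reached 8 only in mock is more likely to be lower in the clones. Of the 23 lower combinations 16 reached 8 in mock alone and 3 in mock and 1 clone. Among the 247 combinations at 8 or more on all 3 arrays, 4 (1.62%) were lower and none higher, close to the 1.23% lower among 8142 single-gene probe sets held to the same condition. The 23 are not independent either, because lists overlap: joined by shared symbols, they form 16 groups.

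A combination is said to fall where both clones were 2-fold lower and limma, fitted on all probe sets, gave an adjusted p under 0.05. By this rule 9 combinations fell and none rose, beside 0.607% of all probe sets falling and 0.264% rising, and 1.15% and 0.67% of single-gene probe sets at the level. An unadjusted limma p under 0.05 was given to 84 of the 292, among them the 25, which their 2-fold difference in both clones makes likely. The same share was not counted over all probe sets, so the 84 are no result about the members. None of the 9 was at 8 or more on all 3 arrays. With that condition the count of falls is 0, and the 4 lower combinations left are the larger Sprr2a list, Ly6c1 with Ly6c2, Pisd-ps1 with Pisd-ps3, and the list of 8 with Zfp534 and Zfp980.

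The largest fall was in the proliferins, placental hormones of the prolactin family made by growing mouse cell lines. The probe set listing Prl2c2, Prl2c3 and Prl2c4 read 10.17 in mock against 5.73 in clone 4 and 5.70 in clone 10. Both clones were thus near the floor of the arrays, whose lowest mock value was 4.42. The fall was 22.0-fold, to a MAFK mean of 5.71 ± 0.02 (SD, n = 2), with a limma adjusted p of 0.0288. Alone, the neighbouring Prl2c5 read 10.20, 6.63 and 7.08 and did not pass (limma adjusted p = 0.0678).

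The probe set listing Cdkn1a with 4930567H12Rik was the third by size to fall. Cdkn1a encodes p21, the cyclin-dependent kinase inhibitor and a main target of p53. The gene table places the 2 genes on chromosomes 17 and 8, so this list is neither of neighbours nor of paralogues. Mock read 11.47, clone 4 read 8.18 and clone 10 read 7.85. The difference of the MAFK mean from mock was -3.45 ± 0.18 (SE). The limma adjusted p was 0.0481, and it rose to 0.0522 with low probe sets left out and 0.0642 after a second quantile normalization, so the call is at the edge.

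Detoxification enzymes fell in both of their combinations, which reached the level of 8 in mock alone. The Ugt1a probe set lists 8 genes of the bilirubin and drug glucuronosyltransferase locus, which splice alternative first exons to common last exons. It read 9.98 in mock and 7.64 in each clone, a 5.06-fold fall with a limma adjusted p of 0.0328. Equal values in the clones gave it the smallest standard error of the fit, 0.0631. The probe set of Gstp1 and Gstp2, the pi class glutathione transferases whose promoters are printed above, read 9.28, 7.45 and 7.58, a 3.40-fold fall with a limma adjusted p of 0.0493. A second probe set of the same pair read 9.17, 7.30 and 7.44. The single-gene probe set of Gstp1 was higher in mock and lower by more, at 11.39, 8.54 and 9.08, but its clones were further apart and it did not pass (limma adjusted p = 0.105). Of 27 other single-gene probe sets within 20 genes on each side, none was 2-fold apart. The shared call was also at the edge, with a limma adjusted p of 0.0538 when low probe sets were left out and 0.0566 after a second quantile normalization.

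The small proline-rich genes, which encode precursors of the cornified envelope, were lower without passing. The probe set listing Sprr2a1, Sprr2a2, Sprr2a3 and Sprr2b read 11.70 in mock against 8.68 in clone 4 and 9.42 in clone 10, a 6.27-fold difference (limma adjusted p = 0.139). That of Sprr2a1 and Sprr2a3 alone read 10.48, 7.67 and 8.15 (limma adjusted p = 0.0918), and it had a second probe set with 10.47 in mock and 7.67 and 8.14 in the clones. In both combinations mock was more than 2 log2 units above either clone, and clone 10 was above clone 4. Alone, Sprr2b was dim and flat, at 6.06, 6.06 and 6.03. Of 24 single-gene probe sets among the 20 genes on each side, 4 were 2-fold lower in both clones: Sprr2g, Sprr2h, the calcium-binding S100a8 and the peptidoglycan receptor gene Pglyrp3. Sprr2g read 8.501, 5.92 and 5.76 and fell with a limma adjusted p of 0.0380.

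Genes of innate immunity were apart in both directions, and the 5 combinations of the antigen presentation and interferon class all lay outside 0.5 of mock in at least 1 clone. Among all 292 combinations, 233 lay within 0.5 in both clones. Ifi204 with Ifi211 reached 8 in mock alone, and the Gbp combinations described below reached it in clones alone. Such a choice of members favours differences from mock, so the directions depend in part on the level. Ifi204 and Ifi211 encode interferon-inducible HIN-200 proteins that bind DNA, and their shared probe set read 8.11 in mock against 4.83 in clone 4 and 4.96 in clone 10. This was a 9.27-fold fall with a limma adjusted p of 0.0328. Of 28 single-gene probe sets among the 20 genes on each side, 3 were 2-fold lower, all of the same family: Ifi203 (8.67, 5.13 and 4.95), Ifi202b (7.38, 4.93 and 4.85) and the DNA sensor gene Aim2 (8.62, 5.92 and 6.47). Ifi203 and Ifi202b fell, with limma adjusted p-values of 0.0335 and 0.0328, and Aim2 did not pass (0.113).

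The leukocyte surface antigens Ly6c1 and Ly6c2 gave the widest gap between the clones. Their probe set read 11.52 in mock against 8.68 in clone 4 and 9.91 in clone 10, so that both clones were lower but differed from each other by 1.23 (limma adjusted p = 0.266). A second probe set of the pair read 9.58, 7.86 and 8.41. This was the 1 combination of 292 at least 2-fold apart between the clones, where 0.163% of all probe sets were higher and 0.18% lower in clone 10. Within the 20 genes on each side Ly6g2 (6.19, 8.67 and 7.61) and Ly6f (6.86, 8.90 and 8.25) were 2-fold higher in both clones without passing limma, and Ly6e (7.53, 6.24 and 6.24) fell.

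Guanylate-binding proteins and classical MHC class I genes were higher in clone 4 than in mock, and less so in clone 10. The GTPase genes Gbp2 and Gbp2b read 7.34 in mock against 9.04 in clone 4 and 8.09 in clone 10 on their shared probe set (limma adjusted p = 0.404). The probe set listing Gbp4, Gbp6, Gbp8, Gbp9, Gbp10 and Gbp11 read 7.30, 8.13 and 7.56, while the single-gene probe set of Gbp9 was 2-fold higher in both clones, at 7.28, 8.68 and 8.37 (limma adjusted p = 0.136). H2-D1 and H2-K1, which present peptides to cytotoxic T cells, read 9.38, 10.39 and 9.62 with LOC547349. Their second probe set differed from mock by 0 in clone 4 and -0.23 in clone 10, so the pair disagreed.

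**Figure D2:**
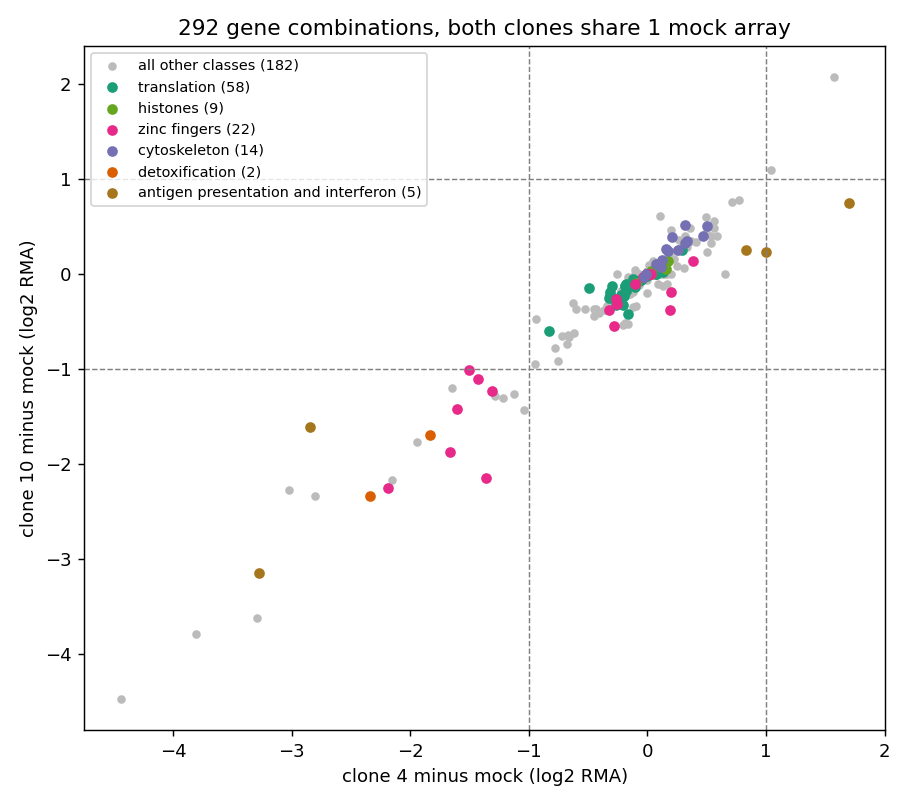
Difference of clone 4 (horizontal) and clone 10 (vertical) from mock in log2 RMA units, with 1 point for each of 292 gene combinations and dashed lines at 2-fold. The 58 translation and 9 histone combinations lie inside the lines, and 7 of 22 zinc finger combinations lie below both. Of these 7, only the list of 8 with Zfp534 and Zfp980 was at 8 or more on all 3 arrays. Both axes share the mock array, which by itself draws points along the diagonal.

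Zinc finger genes made up the named class with the most lower combinations, after 9 among the 145 combinations of no named class. These genes mostly encode KRAB zinc finger proteins, DNA-binding repressors that multiply by tandem duplication. Of 22 combinations 7 were 2-fold lower in both clones and none higher, and 1 fell. The median difference of the class was -0.18 in clone 4 and -0.29 in clone 10, beside 0 over all probe sets. The 7 come from 2 loci, 5 from a cluster on chromosome 4 and 2 from chromosome 17, and several list the same genes. Only the list of 8 with Zfp534 and Zfp980 was at 8 or more on all 3 arrays. The others reached 8 in mock and in at most 1 clone, and such a choice of members favours lower values in the clones. The count and the class median therefore depend on the level, whereas the 0 over all probe sets does not.

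In the chromosome 4 cluster the probe set listing Rex2, Zfp600, Zfp979, Zfp980, Zfp981 and Zfp987 read 8.15 in mock against 5.96 in clone 4 and 5.90 in clone 10. This was the fall, 4.66-fold with a limma adjusted p of 0.0335. The set of 10 genes led by Gm13212 and Zfp534 read 8.83, 7.22 and 7.41, and that of 13 genes led by Gm13212 and Rex2 read 8.05, 6.74 and 6.82. The list of 8 genes with Zfp534 and Zfp980 read 9.44, 8.01 and 8.33, and the list of 5 with Zfp534 and Zfp987 read 9.43, 7.93 and 8.42. Mock lay above both clones in all 5, with differences from -2.25 to -1.01, and the last 4 did not pass (limma adjusted p from 0.0554 to 0.195).

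Single-gene probe sets of this cluster were low in the same arrays. Between the first and the last listed gene, all 8 single-gene probe sets lay below mock in both clones, and 4 were 2-fold lower: Zfp979, Zfp980, Zfp991 and 1 of the 3 for Zfp985. Zfp979 read 8.11, 5.37 and 5.23 and fell with a limma adjusted p of 0.0336. Zfp979 was the only 1 of the 8 to reach 8 on any array. The median difference of the 8 was -0.96 in clone 4 and -0.91 in clone 10. Among 22 single-gene probe sets of the 20 genes on either side, 7 before and 15 after the cluster, none was 2-fold apart and both medians were 0 in each clone. Outside the cluster, 4 of 353 single-gene Zfp probe sets were 2-fold lower and 3 higher.

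**Figure D3:**
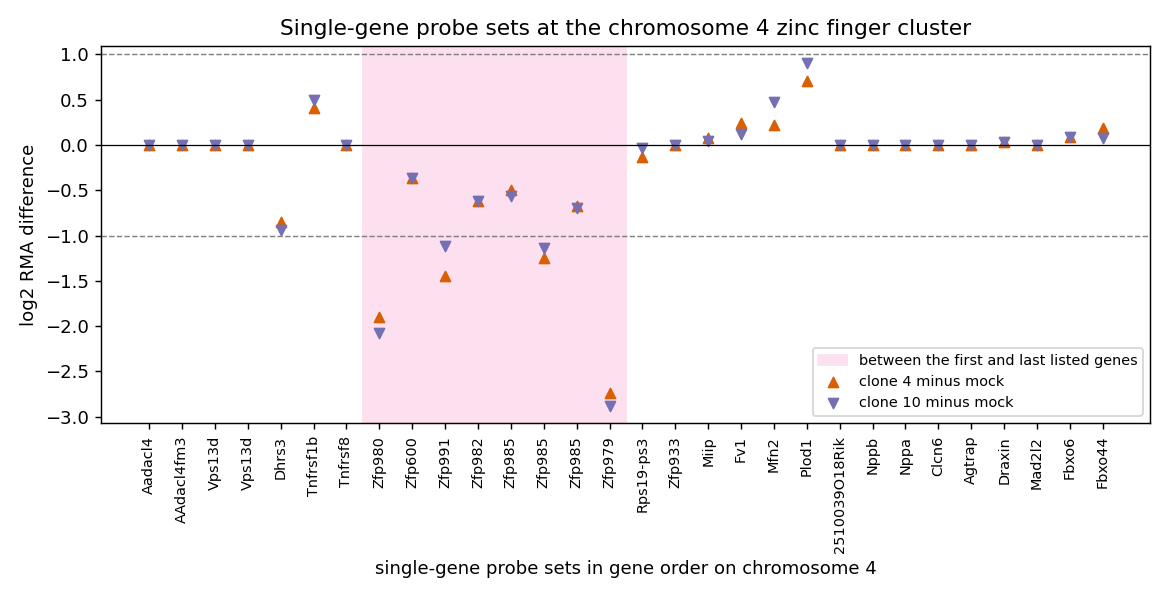
Difference from mock in log2 RMA units (vertical axis) of single-gene probe sets in gene order along chromosome 4 (horizontal axis, not to physical scale), with 1 triangle per clone and the zinc finger cluster shaded. All 8 probe sets inside the shading lie below 0 in both clones, from Zfp600 at -0.37 to Zfp979 at -2.74 and -2.88, whereas no flanking probe set passes either 2-fold line.

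On chromosome 17 the probe set of Gm10509 and Zfp983 read 8.05 in mock against 6.38 in clone 4 and 6.17 in clone 10 (limma adjusted p = 0.0670). With Zfp51 added to the list, another probe set read 8.46, 7.10 and 6.30 (limma adjusted p = 0.217). The single-gene probe set of Zfp983 fell (6.46, 4.99 and 4.96, limma adjusted p = 0.0415), that of Zfp51 was near mock (8.39, 8.27 and 7.93), and that of the neighbouring Zfp52 was higher (5.995, 7.09 and 7.09, limma adjusted p = 0.0541). The other 15 zinc finger combinations were nearer to mock, and 4 of the 22 had the same value on all 3 arrays. One of these, 17 symbols with Zfp931, Zfp970 and Zfp971, was the brightest at 11.86. Differences ran both ways: the list of 6 with Zfp108 read 9.47, 9.85 and 9.60, and 3300002I08Rik with Zfp442 and Zfp937 read 8.78, 8.50 and 8.23.

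Predicted genes on chromosome 14 gave the second largest fall. The probe set listing AY358078, Gm8267 and 4 RIKEN genes read 8.64 in mock against 4.83 in clone 4 and 4.85 in clone 10, a 13.9-fold fall with a limma adjusted p of 0.0288. A related list of the 4 RIKEN genes alone read 8.13, 5.97 and 5.96 and fell 4.48-fold (limma adjusted p = 0.0328). AY358078 alone read 5.32 on all 3 arrays, without the difference seen on the shared probe set. The pair 9930111J21Rik1 and 9930111J21Rik2 on chromosome 11 read 8.80, 7.15 and 7.60 without passing (limma adjusted p = 0.156). Near it the interferon-inducible GTPase gene Irgm1 read 9.92, 8.46 and 8.88 (limma adjusted p = 0.168).

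The microRNA gene Mir23b lies within Aopep, an aminopeptidase gene, and the probe set listing both fell 2.44-fold. It read 8.58 in mock and 7.29 in each clone (limma adjusted p = 0.0470, and 0.0520 with low probe sets left out). Aopep alone had similar values, at 8.23, 7.06 and 7.06 (limma adjusted p = 0.0501). The other microRNAs of the cluster, Mir27b and Mir24-1, are listed with Aopep on probe sets below the level of 8. Aopep with Mir24-1 read 7.15, 5.66 and 5.58 and fell (limma adjusted p = 0.0470), and Aopep with Mir27b read 6.59, 5.39 and 5.49 (limma adjusted p = 0.0700). The arrays measured transcripts of the locus and not mature microRNAs. Mature products of the cluster from RefSeq, with the seed (bases 2 to 8) in capitals, are given for every arm held in the table. Among the 5′ arms, held for all 3 microRNAs, the seeds differ, as do those of the 2 3′ arms.
mmu-miR-23b-5p: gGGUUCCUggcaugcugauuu
mmu-miR-27b-5p: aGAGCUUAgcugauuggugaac
mmu-miR-24-1-5p: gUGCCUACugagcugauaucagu
mmu-miR-27b-3p: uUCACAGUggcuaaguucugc
mmu-miR-24-3p: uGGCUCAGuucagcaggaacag

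The remaining lower combinations did not pass limma. Ass1, the urea cycle enzyme argininosuccinate synthase, with its pseudogene Gm5424 read 8.41 in mock against 6.48 in clone 4 and 6.64 in clone 10 (limma adjusted p = 0.0541), and their second probe set read 8.17, 6.30 and 6.45. C1ra and C1rb, proteases that start the classical complement cascade, read 8.47, 7.25 and 7.16 (limma adjusted p = 0.0572). The single-gene probe set of C1ra was dimmer with a smaller difference (6.40, 5.70 and 5.80), and that of the partner protease gene C1s1, which lies between them, fell (8.15, 6.44 and 6.42, limma adjusted p = 0.0367). The transcribed pseudogenes Pisd-ps1 and Pisd-ps3 read 9.72, 8.59 and 8.46 (limma adjusted p = 0.0757). Mitochondrial ND6, a subunit of respiratory complex I, is listed with Acsm2 and read 8.58, 7.54 and 7.14 (limma adjusted p = 0.161), while Acsm2 alone read 5.51 on all arrays.

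The 2 higher combinations were among the 16 of 292 that reached 8 in clones and not in mock. Such a choice of members favours higher values in the clones, so their lower mock values are no separate finding. Hoxb7 and Hoxb8, homeobox genes of positional identity, read 7.15 in mock against 8.19 in clone 4 and 8.25 in clone 10, a 2.10-fold difference (limma adjusted p = 0.0628). Their direct and near neighbours were also higher: of 28 single-gene probe sets among the 20 genes on each side, 4 were 2-fold higher in both clones, Hoxb3, Hoxb5, Hoxb6 and Hoxb9. Hoxb9 read 6.75, 9.48 and 9.72 and rose with a limma adjusted p of 0.0470, as did Hoxb6 (7.13, 9.16 and 9.06) with one of 0.0404. Pakap, the name of the joined Palm2 and Akap2 locus, read 6.11, 7.68 and 8.18 on the probe set shared with Palm2 (limma adjusted p = 0.139). It read 7.62, 7.72 and 8.23 on that shared with Akap2.

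Probe sets of 1 gene gave another reading, on the same arrays, for part of the members. They existed for a listed symbol of 186 combinations, 15 of them among the 25. For 10 of these 15, at least 1 single-gene probe set was 2-fold from mock in both clones in the same direction. All 7 combinations of the 2 zinc finger loci are among these 10, and they share single-gene probe sets. The rest of the 10 were the combinations with Aopep, Gstp1 and Pakap. For those with AY358078, Acsm2, C1ra, Hoxb7 and Sprr2b no single-gene probe set was 2-fold apart. Of the 18 single-gene probe sets of the 15 combinations, 14 never reached 8. For the combinations not 2-fold apart there were 273 such probe sets, of which 4 were higher and 2 lower.

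Beside a nearly flat shared signal, single-gene probe sets of 2 beta-tubulin paralogues differed from mock in opposite directions. Which listed gene the shared probe set matches was not analysed. The probe set listing Tubb2a, Tubb2b and a pseudogene read 7.89 in mock against 8.21 in clone 4 and 8.22 in clone 10. The difference, 0.32 ± 0.06 (SE), did not pass (limma adjusted p = 0.187). The single-gene probe set of Tubb2a fell from 8.04 to 6.58 and 6.62 (limma adjusted p = 0.0447). That of Tubb2b rose from 7.18 to 8.97 and 9.01 (limma adjusted p = 0.0362).

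**Figure D4:**
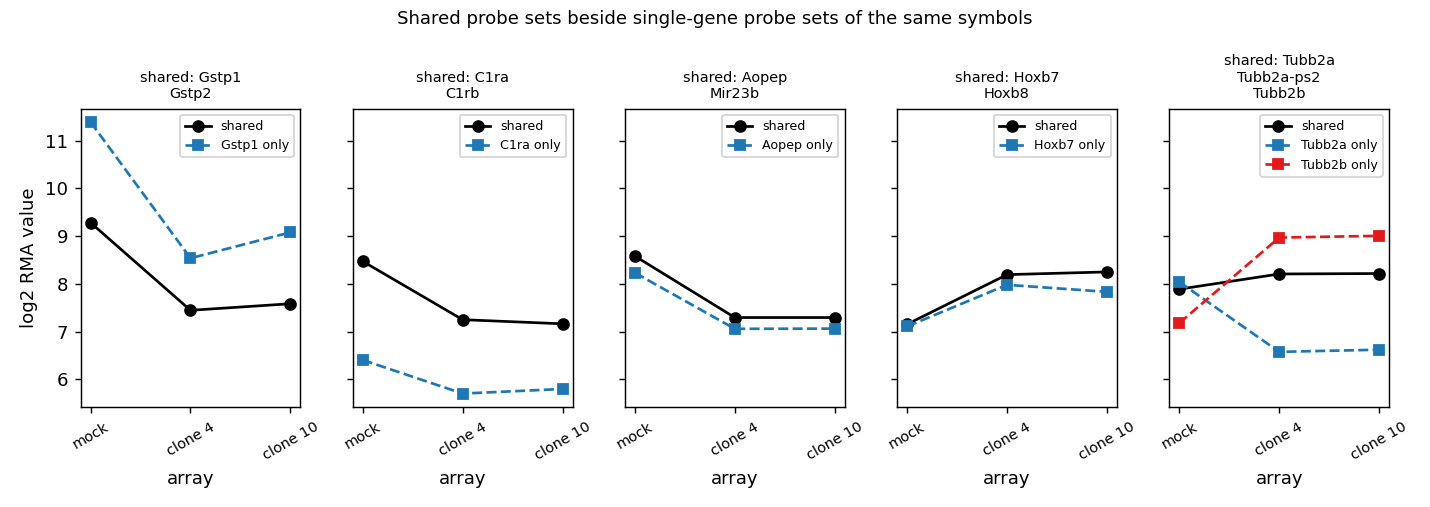
Log2 RMA values (vertical axis) on each array for 5 shared probe sets (solid black) and for single-gene probe sets of the listed symbols (dashed). Shared and single-gene values run the same way for Gstp1, C1ra, Aopep and Hoxb7, whereas Tubb2a falls to 6.58 and 6.62 and Tubb2b rises to 8.97 and 9.01 around a shared value between 7.89 and 8.22.

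Housekeeping families formed the bright and steady part of the members. The 58 translation combinations, mostly ribosomal protein genes with their pseudogenes, had a median level of 12.26, and 57 stayed within 0.5 of mock in both clones. Rpl21, listed with Camkv and Cep170, had 23 probe sets, and the brightest read 13.54 on all 3 arrays. The exception was the initiation factor gene Eif1a, which read 10.60, 9.77 and 9.99 on a probe set with 7 other symbols. The 4 probe sets of that list differed from mock by -1.15 to -0.83 in clone 4 and by -0.70 to -0.50 in clone 10. Rps24 with Gm4832 counts as within 0.5 by its brightest probe set, but its 3 probe sets ran from -0.62 to -0.49 in clone 4. All 9 histone combinations were within 0.5 of mock, led by 12 H3 genes at 13.79 on all 3 arrays, and 11 H4 genes read 13.52. Gapdh with 3 other symbols read 13.92, 13.93 and 13.92, and Actb with Actg1 read 13.35, 13.32 and 13.32. The brightest combination was Cdk8 with the ribosomal RNA gene Rn28s1, at 14.27, 14.16 and 14.14.

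Smaller differences were found in other classes. No combination of the cytoskeleton, chaperone or mitochondrial classes was 2-fold from mock in both clones. The predicted gene class held 2 lower combinations and the small RNA class 1, all described above. In the cytoskeleton class, 14 combinations of tubulins, actins, tropomyosin and keratin-associated proteins had a median difference of 0.19 in clone 4 and 0.26 in clone 10. Some of them reached 8 in clones and not in mock, such as Krtap5-2 with Krtap5-3 (7.79, 8.10 and 8.30). Such a choice of members favours higher values in the clones, and several lists share Krtap5 genes, so this median depends on the level. Tubb4b with Zfp646 read 11.34, 11.84 and 11.84. The 16 chaperone, proteasome and ubiquitin combinations had a median difference of 0.01 in clone 4 and 0 in clone 10. The brightest were the ubiquitin-conjugating enzyme gene Ube2l3 (11.94, 11.99 and 12.07), the cochaperone gene Dnajb6 (12.07, 11.87 and 11.88) and the heat shock cognate gene Hspa8 (10.87, 10.42 and 10.42), each with symbols of predicted or small RNA genes. The widest differences lay on both sides, with the proteasome activator pair Psme2 and Psme2b at 9.85, 9.17 and 9.11 and Ubl4a with Gm44504 at 9.25, 9.75 and 9.85. Combinations of predicted genes only were led by 1810037I17Rik with Gm2036, at 11.40, 11.57 and 11.30. The ferritin light chain gene Ftl1, listed with 2 microRNA genes, read 13.21, 12.61 and 12.85. In the mitochondrial class Cox16, an assembly factor of cytochrome oxidase, read 8.81, 7.87 and 8.34 with Gm20498, and Ndufb4 with Ndufb4b read 12.17 on all 3 arrays.

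Probe sets with the same list mostly had similar differences from mock. Since 233 of 292 combinations lay within 0.5 of mock in both clones, narrow spans were likely and say little about agreement. Of 123 combinations with 2 or more probe sets, 120 had differences from mock that spanned less than 0.5 in each clone, while the median range of their levels was 0.223. The 3 that spanned more were Ly6c1 with Ly6c2, H2-D1 with H2-K1, and Gm8615 with Gnpda1 (0.74 in clone 4 and 0.58 in clone 10). The 12 probe sets listing Ino80 and Rpl35a ranged in mean level from 8.33 to 12.26, yet differed from mock by 0 to 0.39 in clone 4. By their listed genes, 71 combinations held neighbours, 64 paralogues on symbol stems and 36 both, and 121 neither. Of these, 5, 6, 7 and 5 were 2-fold lower, beside 7.88% of all 292 combinations and 3.25% of single-gene probe sets at the level. Differences between these kinds were not tested, and their lists overlap. In 118 combinations a single named gene stood beside predicted genes, pseudogenes or copies, and 4 of them were 2-fold lower.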

How the data were processed

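The authors deposited log2 expression values per probe set made with RMA, per the submitters' processing notes. RMA corrects background, quantile normalizes arrays and summarises probes by median polish. Version, build and filters are not given in the sources used here. Median polish over 3 arrays returned equal values in both clones for many probe sets.

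Symbols came from the platform annotation, and positions in gene order and chromosomes from a gene table of GRCm38.p6, with no coordinates taken from it. Neighbours lay at most 10 places apart on 1 chromosome, and paralogues shared a symbol stem of at least 3 letters (histone and H2 symbols were added).

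All 28815 probe sets were fitted with limma 3.58.1 in R 4.3.3 (two-sided, Benjamini-Hochberg, adjusted p under 0.05), MAFK against mock, with 1 residual degree of freedom. The prior (1.88 degrees of freedom, SD 0.0638) came from the 12582 probe sets whose clones differed, and it was tested on simulated data. With 3 arrays limma has little power for all but large changes, so a combination that did not pass is not shown to be unchanged. Mock was assumed to vary as the clones do.

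Named were all combinations 2-fold apart in both clones, between 1 and 3 of the brightest per class, and those at the level of 8. Others, and all flanking and single-gene probe sets, were named after their values were seen. Members and lists were chosen with earlier results of these data known. Alternatives changed the level, fold, normalization, prior and filter.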

Additional observations from a re-analysis of the deposited data

How the results depend on the processing

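The counts followed the level that chose the members. At a level of 7, 16 combinations fell by limma and 2-fold. At 9, 0 were 2-fold higher, 10 lower and 4 fell. With 8 on the mean of the arrays, 0 were higher, 9 lower and 3 fell. With 8 on all 3 arrays, a setting added after the data were seen, 0 were higher, 4 lower and 0 fell. A fold of 1.5 gave 5 higher and 6 combinations apart between the clones, and a fold of 3 gave 0 higher and 13 lower. By limma, 1 rose and 8 fell after a second quantile normalization and 6 fell with low probe sets left out, beside 9 in the main fit. More fell under other settings: 16, with 1 rising, with arrays centred on their medians, and 15, with 1 rising, with a prior from all probe sets. With an intensity trend in the prior 14 fell. The mean of a combination's probe sets left 0 apart between the clones. Among single-gene probe sets reaching 8, 3 of 4 combinations had one that differed alike. With 1 clone left out, 2 to 4 combinations were 2-fold higher and 23 lower (23 in each case), and limma had no residual degree of freedom. None of the 25 combinations 2-fold apart changed direction under the normalizations, priors and filter run, and the other named combinations were not rerun singly. No paired analysis was possible because the groups share fewer than 2 replicate numbers. Values near the floor of the arrays are compressed by RMA, which limits the folds.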

Other observations

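Shared probe sets that stayed below the level of 8 on every array numbered 911 and formed 502 combinations, 493 of them with no brighter probe set and 9 counted above. Of the 493, 12 were 2-fold lower than mock in both clones and none was 2-fold higher. Over all probe sets 1.59% were lower and 0.947% higher by this rule. The chromosome 14 family of AY358078 and RIKEN genes gave 4 of the 12. Aopep with Mir24-1 and with Mir27b, described above, are also among the 12, which are therefore not independent. The largest difference, on a list with Gm5622, ran from 7.95 in mock to 4.68 in clone 4 and 4.74 in clone 10 (limma adjusted p = 0.0288). Gsta1 and Gsta2, alpha class glutathione transferases listed with Gm10639 and Gm3776, fell from 7.37 to 6.13 in each clone (limma adjusted p = 0.0477). The imprinted pair Snrpn and Snurf read 7.15, 5.71 and 5.93 without passing (limma adjusted p = 0.0935). The interferon-inducible GTPase pair Tgtp1 and Tgtp2 read 7.66 in mock and 6.52 in each clone (limma adjusted p = 0.0504). Zfp975 and Zfp976 with EU599041 and Gm2381 read 7.32, 5.03 and 5.53 (limma adjusted p = 0.124).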
